A study of Homo sapiens with 9 samples.

Results

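The clustered HOX genes were taken as the rows of the count table whose symbol is HOXA, HOXB, HOXC or HOXD followed by a number, which gave 39 of 19969 genes: 11 in HOXA, 10 in HOXB, 9 in HOXC and 9 in HOXD. They were counted in 9 libraries made from ribosomal-RNA-depleted RNA of HEK293T, a transformed human embryonic kidney line. Of these, 6 are labelled with an FHY1-M3 construct plus a guide RNA (sgRNA): 2 with an ACTB sgRNA, 2 with a con sgRNA and 2 with a non-target sgRNA, called here the ACTB, con and non-target pairs. The other 3 are labelled input, with no construct, guide or light condition given. By its title, the series uses red and far-red light to edit m6A, N6-methyladenosine in RNA. The labels do not give the light each culture received, the RNA fraction in the FHY1-M3 libraries, the promoter of the construct or whether each replicate was its own culture. The p-values therefore cover only library-to-library spread, which may be technical. The con columns of the table are headed con_ACTB_sgRNA, so it is not known whether they also had the ACTB guide.

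HOX genes encode homeodomain transcription factors that set position along the body axis and in limbs. They lie in clusters in which genes are numbered by paralog group, with low numbers expressed toward the head and high numbers toward the tail. In many cells Polycomb complexes keep HOX genes silent and Trithorax complexes keep them active, and PBX and MEIS proteins bind DNA with HOX proteins. In the developing kidney, HOXA11 and HOXD11 are known for their part in forming the metanephric kidney.

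The HOXA cluster lies at chr7:27092993-27200091, HOXB at chr17:48528526-48728750, HOXC at chr12:53938831-54056030 and HOXD at chr2:176087487-176190907 (RefSeq GRCh38.p14, with all 39 symbols matched). Of the 39 genes, 11 overlap another HOX gene in that annotation, 19 overlap a non-coding gene and 16 overlap no other gene. HOXA3 spans HOXA4, HOXA5 and HOXA6, and HOXB3 spans HOXB4. HOXD3 overlaps HOXD4, and HOXC4, HOXC5 and HOXC6 share a first annotated base. The libraries were made with a directional kit, but whether counting used the strand is not given in the sources used here. Reads of overlapping genes may therefore be shared or lost.

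The promoter table held 27 windows of 20 members, each from 250 bases before to 50 bases after a start site. HOXA3 had several windows, HOXB1 was the only HOXB gene, and HOXC4 and HOXC5 shared the same window. HOXC12 and HOXB13 had none, so HOX medians below weigh the members unequally. HOXB1 and HOXD12 are shown because they were highest in the non-target libraries, and HOXD10 and HOXD13 because they lie in the same cluster as HOXD12 and were high in every library. Capitals mark TGATNNAT, a form of the site bound by PBX and HOX proteins together, searched on both strands. The windows are chr17:48530962-48531261 on the minus strand for HOXB1 and, on the plus strand, chr2:176099545-176099844 for HOXD12, chr2:176116528-176116827 for HOXD10 and chr2:176092471-176092770 for HOXD13 (RefSeq, GRCh38.p14).
HOXB1: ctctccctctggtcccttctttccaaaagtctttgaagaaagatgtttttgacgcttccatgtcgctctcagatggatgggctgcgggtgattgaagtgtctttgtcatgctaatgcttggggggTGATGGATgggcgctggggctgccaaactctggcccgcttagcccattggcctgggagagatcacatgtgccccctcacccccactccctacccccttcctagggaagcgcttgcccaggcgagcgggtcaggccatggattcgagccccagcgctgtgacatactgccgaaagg
HOXD12: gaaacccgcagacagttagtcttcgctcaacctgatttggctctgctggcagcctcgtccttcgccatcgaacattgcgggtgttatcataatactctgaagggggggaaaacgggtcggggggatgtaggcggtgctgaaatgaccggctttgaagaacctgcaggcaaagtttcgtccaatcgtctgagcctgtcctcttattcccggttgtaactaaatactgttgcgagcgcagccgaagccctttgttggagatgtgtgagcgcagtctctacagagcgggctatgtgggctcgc
HOXD10: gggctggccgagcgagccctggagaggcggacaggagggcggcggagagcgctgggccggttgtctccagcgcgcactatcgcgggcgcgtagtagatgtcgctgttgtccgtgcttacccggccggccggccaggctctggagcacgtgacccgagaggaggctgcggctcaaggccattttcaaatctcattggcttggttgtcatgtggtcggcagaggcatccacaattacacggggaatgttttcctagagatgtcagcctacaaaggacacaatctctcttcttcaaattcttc
HOXD13: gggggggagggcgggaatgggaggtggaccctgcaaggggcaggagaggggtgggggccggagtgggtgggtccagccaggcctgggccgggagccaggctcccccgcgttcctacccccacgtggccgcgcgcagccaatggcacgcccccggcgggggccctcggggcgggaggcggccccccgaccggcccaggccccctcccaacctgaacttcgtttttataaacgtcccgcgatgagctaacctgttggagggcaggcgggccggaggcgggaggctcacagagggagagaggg
The HOXB1 window held 1 match, starting at -125 from the start site, and the other 3 windows held none. Over all HOX windows 3 of 27 held it (11.1%), against 7.40% of 35116 promoter windows. GC content was 58% in HOXB1, 54.3% in HOXD12, 60% in HOXD10 and 74% in HOXD13, and the HOX median (58%) was close to that of all windows (58.7%). CpG dinucleotides were denser in HOX windows, with a median of 22 against 14 and an observed-to-expected ratio of 0.849 against 0.579. HOXB1 had 11 and HOXD12 had 19, both under the HOX median. The ratio was 0.436 in HOXB1, under the HOX median, and 0.868 in HOXD12, above it.

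Most of the HOX complement was detected in these HEK293T libraries, taking any count as detection. Some members rested on few reads, such as HOXA2 with 2 counts in ACTB replicate 1. Between 36 and 38 of the 39 genes had a count in each sgRNA library and 31 to 33 in each input. The sgRNA libraries were deeper, at 2900021 to 3802681 total counts against 350413 to 643954, and at the smallest total the sgRNA libraries would be expected to show 32.0 to 35.1 HOX genes. Together the HOX genes took 0.124% to 0.143% of the counts in the sgRNA libraries and 0.134% to 0.140% in the inputs. Among low values (1 to 20 counts), 88.5% to 95% were even, so a read pair appears to add 2 counts. As a check of the line, 11 of 12 listed HEK293 marker genes had counts in every group, among them VIM (2144 to 2990 counts per sgRNA library), NEFL and NEFM, while PAX8 was at 0 throughout.

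**Figure D1:**
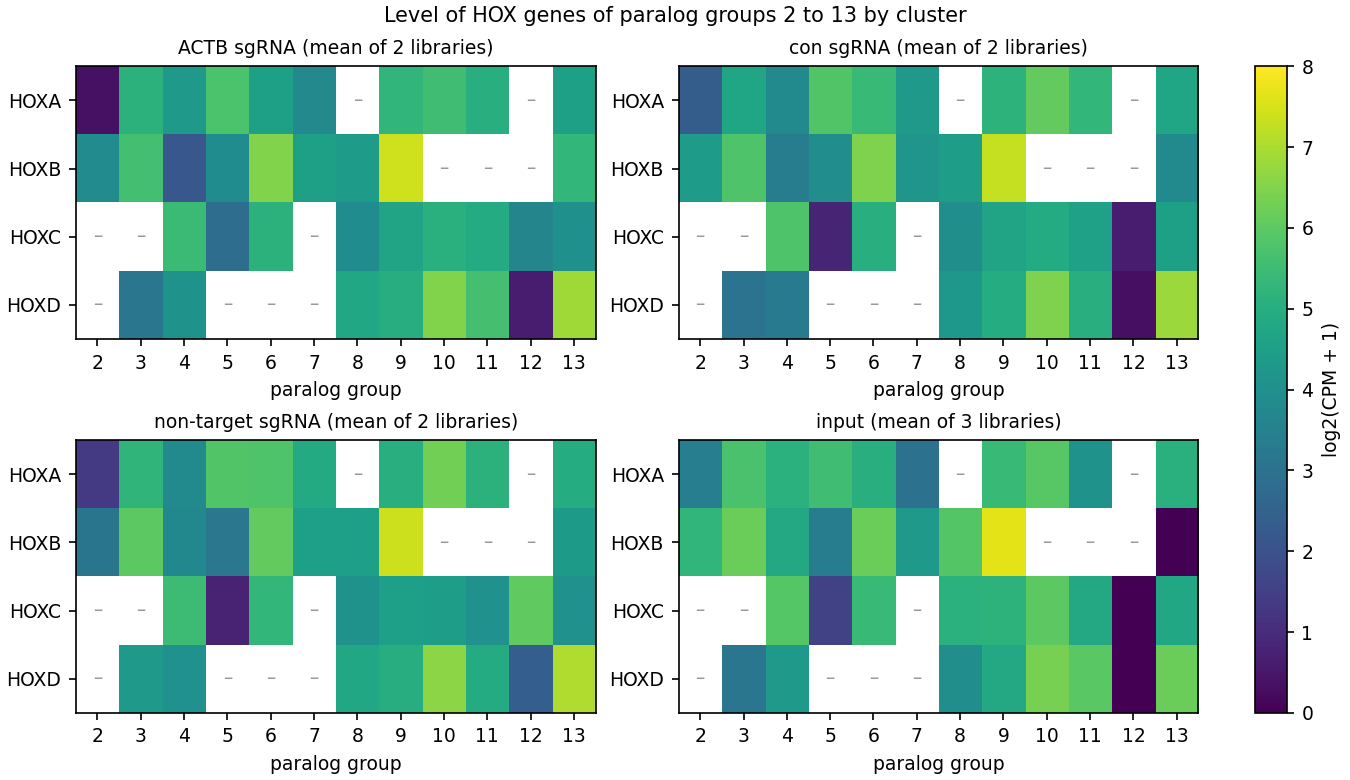
Mean level of the HOX genes of paralog groups 2 to 13 as log2(CPM + 1), by cluster (rows) and paralog group (columns), in the 4 groups of libraries; a dash marks a position with no gene. HOXB9 and HOXD13 are bright in every group, HOXC12 is bright in the non-target panel, and HOXB13 is at 0 in the input panel.

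Levels were expressed as CPM, counts scaled to library size with TMM factors. Posterior genes (paralog groups 9 to 13, 16 genes) held 58.0% ± 3.36 of HOX counts over the 6 sgRNA libraries (SD) and 53.1% ± 3.96 over the 3 inputs. Central genes (groups 4 to 8, 15 genes) held 32.0% ± 2.40 and 33.4% ± 1.99, and anterior genes (groups 1 to 3, 8 genes) held 9.99% ± 2.12 and 13.5% ± 5.29. The ranges of the sgRNA and input libraries overlapped for each position class, and the order posterior, central, anterior was the same in both kinds of library. By cluster, HOXB was the highest sum, at 403 ± 26.6 CPM (SD, n = 6) in the sgRNA libraries and 496 ± 93.9 CPM (n = 3) in the inputs, and HOXC the lowest in the sgRNA libraries, at 217 ± 20.1 CPM against 287 ± 74.1 CPM. HOXA stood at 331 ± 43.1 and 342 ± 7.04 CPM, and HOXD at 328 ± 42.0 and 284 ± 59.8 CPM. In inputs HOXC and HOXD did not differ beyond their spread.

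**Figure D2:**
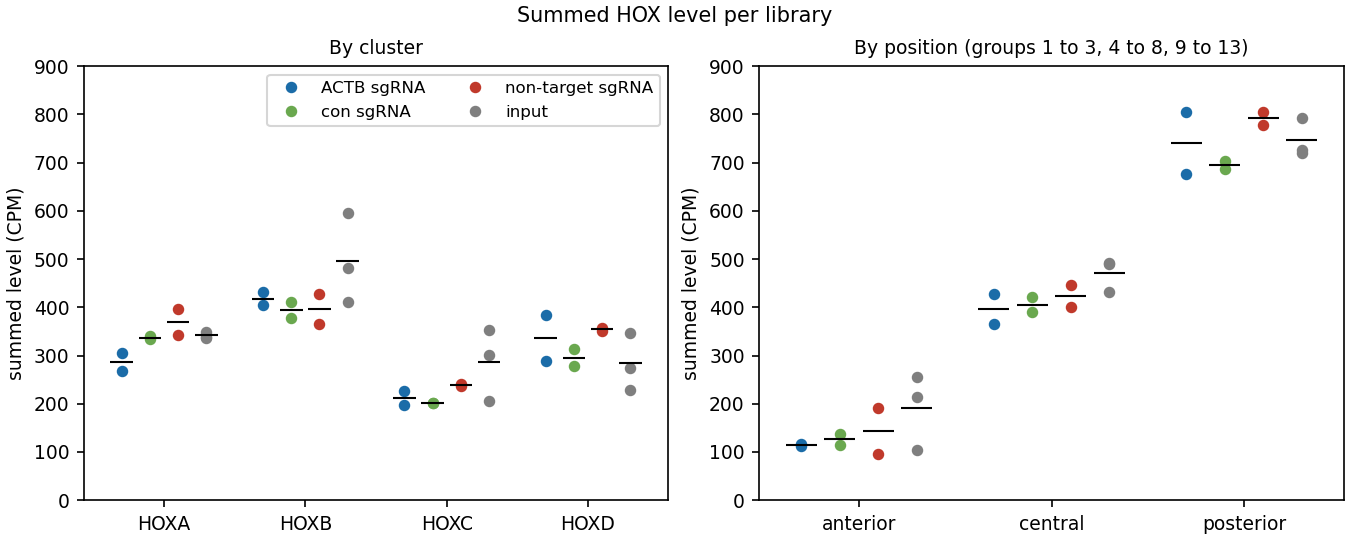
Summed level (CPM) of the HOX genes of each cluster (left) and each position class (right); points are libraries and bars are group means. Posterior sums lie between 677 and 805 CPM in the sgRNA libraries, above every central sum (365 to 447 CPM).

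Per kilobase of annotated gene span, introns included, 28 members without overlap with another HOX gene could be ordered. HOXB9 was first at 31.6 CPM per kilobase in the sgRNA libraries, followed by HOXD10 (28.7), HOXD13 (14.1) and HOXD9 (13.7). HOXA2 (0.862), HOXD12 (0.629) and HOXD1 (0.623) were last. The median was 1.49 CPM per kilobase for 5 anterior genes, 6.81 for 7 central genes and 6.59 for 16 posterior genes, and the posterior genes spread from 0.629 to 31.6. In the inputs the medians were 4.18, 4.93 and 6.89 CPM per kilobase, so the posterior median was the highest there and the anterior median was nearer the others.

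HOXB9, a posterior gene, was the most counted member. It stood at 159 and 179 CPM in the ACTB pair, 159 and 157 CPM in the con pair, 182 and 152 CPM in the non-target pair and 173, 234 and 199 CPM in the inputs. The 3 guides overlapped, and ACTB minus non-target came to 0.02 on the log2 scale with a 95% interval of -0.32 to 0.37. HOXD10, known from motor neuron and limb patterning, was at 98.4, 77.5, 85.5, 87.6, 89.7 and 106 CPM in the sgRNA libraries, in the order ACTB, con and non-target sgRNA (replicates 1 and 2 of each), and at 75.2, 81.3 and 88.9 CPM in the inputs. FHY1-M3 libraries and inputs overlapped, and the interval for FHY1-M3 against input was -0.34 to 0.63. HOXB6 was at 86.8, 90.8, 101, 71.6, 60.7 and 71.1 CPM in the same order and at 95.4, 68.3 and 52.3 CPM in the inputs. The ACTB libraries lay above the non-target pair, and the sgRNA and input ranges overlapped in part.

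In HOXA the members with the highest mean over the sgRNA libraries were HOXA10, HOXA5 and HOXA6, whereas in the inputs HOXA3 (50.6 CPM) stood between HOXA10 and HOXA5 (45.7 CPM). HOXA10, a regulator of the reproductive tract and of blood progenitors, was at 47.5 and 43.4 CPM in the ACTB pair, 63.4 and 68.2 CPM in the con pair, 83.3 and 71.1 CPM in the non-target pair and 69.4, 58.5 and 52.3 CPM in the inputs. The ACTB libraries were the lowest of all 9, but the log2 difference from the non-target sgRNA (-0.76, SE 0.29) did not pass (edgeR adjusted p = 0.475). HOXA6 was at 35.4 and 9.83 CPM in the ACTB pair, 35.9 and 46.2 CPM in the con pair, 54.3 and 55.4 CPM in the non-target pair and 28.9, 22.8 and 41.8 CPM in the inputs. ACTB replicate 2 was the lowest library, and the difference from non-target did not pass (-1.27, SE 0.40, adjusted p = 0.339), but passed without ACTB replicate 1 (-2.47, adjusted p = 0.0198). HOXA5, which acts in lung development, was at 68.0, 37.6, 54.1, 58.8, 62.3 and 49.2 CPM in the sgRNA libraries, in the order given above, and 28.9, 45.5 and 62.7 CPM in the inputs, with overlap throughout.

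HOXB3, and HOXC4 and HOXC6, which led HOXC in the sgRNA libraries, showed wide spread between replicates. In the inputs HOXC10 had the highest mean of HOXC (62.8 CPM), followed by HOXC4 (57.7 CPM) and HOXC6 (41.7 CPM). HOXB3 was at 52.5, 44.0, 49.4, 60.4, 36.3 and 87.5 CPM in the sgRNA libraries and 40.5, 124 and 52.3 CPM in the inputs. HOXC4 was at 55.8, 30.1, 49.9, 58.8, 39.8 and 48.5 CPM, and at 57.8, 81.3 and 34.0 CPM in the inputs. HOXC6 was at 40.9, 28.3, 33.5, 29.4, 41.9 and 35.5 CPM, and at 63.6, 40.6 and 20.9 CPM in the inputs. In each of these genes the inputs spread more widely than the sgRNA libraries, and the ranges overlapped. HOXD11 was at 30.4, 66.8, 29.6, 35.2, 34.9 and 23.2 CPM, and at 31.8, 21.1 and 131 CPM in the inputs, where replicate 3 alone was high. HOXA11, its paralog, was at 34.6 ± 5.01 CPM in the sgRNA libraries and 16.0 ± 9.46 CPM in the inputs (log2 1.09, SE 0.47, adjusted p = 0.1), which did not pass.

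Between guides, the HOX gene that changed was HOXC12, a posterior HOXC gene (chr12:53954903-53958956). It held 8 and 72 counts in the ACTB pair, 0 and 4 in the con pair, 250 and 188 in the non-target pair and 0 in each input. The non-target libraries were the highest and overlapped no other library, while the ACTB replicates stood far apart. Its level was 65.7 ± 2.07 CPM in the non-target pair, 11.5 ± 13.2 CPM in the ACTB pair and 0.525 ± 0.742 CPM in the con pair (mean ± SD, n = 2 each). By the edgeR quasi-likelihood test it was lower in the con than in the non-target pair (log2 -6.88, SE 0.79, adjusted p = 7.93e-08), and lower in the ACTB than in the non-target pair (-2.51, SE 0.56, adjusted p = 0.0252). It was higher in the ACTB than in the con pair (4.37, SE 0.81, adjusted p = 0.0132). The comparisons in the non-target pair share those 2 libraries. HOXC12 passed the low-count filter through the non-target pair, since of the other sgRNA libraries only ACTB replicate 2 held more than 8 counts. Its calls between guides are therefore given as a description.

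HOXC12 was the single member called in each guide comparison, with 37 members tested. That is 1 of 37 lower in ACTB versus non-target, beside 0.250% of all 12808 genes (0.0547% higher, 0.195% lower). It is 1 of 37 higher in ACTB versus con, beside 0.0312% (0.0156% higher, 0.0156% lower). It is 1 of 37 lower in con versus non-target, beside 0.172% (0.00781% higher, 0.164% lower). For con versus non-target the log2 kept its sign under all 14 alternatives, from -10.85 to -5.92. These are refits of the same libraries, including the non-target pair through which HOXC12 passed the filter, so they add no support. The calls of the other comparisons were lost in some refits. ACTB versus non-target lost its call without ACTB replicate 1 (log2 -1.65, adjusted p = 0.416), without non-target replicate 1 (0.292) or 2 (0.151), in DESeq2 (0.566) and with all 9 libraries in the fit (0.877), and its log2 was -4.87 at the lowest over the alternatives. ACTB versus con lost its call without ACTB replicate 2 (log2 2.01, with p at 1), after dropping replicate 1 of con (3.41, 0.182), and after dropping replicate 1 (0.141) or 2 (0.081) of the non-target pair, in DESeq2 (0.65) and with all 9 libraries (0.752), and its log2 reached 8.34.

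HOXB1 and HOXD12 were also highest in the non-target pair, at lower counts. HOXB1, a hindbrain gene at the head end of its cluster, held 42 and 32 counts in the non-target pair and 0 in the other 7 libraries. Against a floor of 3 read pairs over the group, the non-target level of 11.1 ± 0.247 CPM was at least 13.1-fold that in the ACTB pair and at least 14.2-fold that in the con pair. HOXB1 passed the low-count filter through the non-target pair alone. Neither difference passed in edgeR (adjusted p = 0.165 and 0.206), while DESeq2 called both (0.0077 and 0.0086). HOXD12, a limb gene, held 4 and 0 counts in the ACTB pair, 0 and 2 in the con pair, 14 and 14 in the non-target pair and 0 in the inputs. The HOXD12 non-target libraries overlapped no other. Like HOXB1, HOXD12 passed the low-count filter through the non-target pair alone, so this separation is given as a description. Its differences of -2.85 (SE 1.98) for ACTB and -3.86 (SE 2.12) for con versus non-target did not pass (edgeR adjusted p = 0.763 and 0.932). HOXD1 went the other way, at 2 and 18 counts in the ACTB pair, 4 and 6 in the con pair, and 0 in the non-target and input libraries. It was removed by the low-count filter and not tested, as was HOXA2 between guides.

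None of the nearest neighbours of HOXC12, HOXB1 and HOXD12 stood above all other libraries in the non-target pair. HOXC13, 8.36 kilobases from HOXC12, was at 15.3 ± 5.29, 22.4 ± 10.2 and 15.6 ± 4.60 CPM in the ACTB, con and non-target pairs, and HOXC11, on the other side, at 29.2 ± 6.14, 23.0 ± 10.2 and 15.5 ± 2.20 CPM. HOXB2, 11.64 kilobases from HOXB1, was at 13.6 ± 0.362, 20.6 ± 6.15 and 7.62 ± 4.69 CPM. Both of its non-target libraries lay below the other 7, the opposite direction to HOXB1 (con versus non-target log2 1.45, adjusted p = 0.867). HOXD13, 3.85 kilobases from HOXD12, was at 114 ± 28.7, 111 ± 12.4 and 132 ± 16.4 CPM, and HOXD11, on its other side, at 48.6 ± 25.7, 32.4 ± 3.90 and 29.1 ± 8.27 CPM. HOXD13 had its highest mean in the non-target pair too, but its libraries overlapped across guides. None of these 5 neighbours passed in a guide comparison. Without HOXC12 the HOXC sum was 173 ± 5.96 CPM in the non-target pair, 200 ± 8.05 CPM in the ACTB pair and 200.5 ± 0.738 CPM in the con pair, and with it 239 ± 3.89, 211 ± 21.2 and 201 ± 0.00448 CPM.

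**Figure D3:**
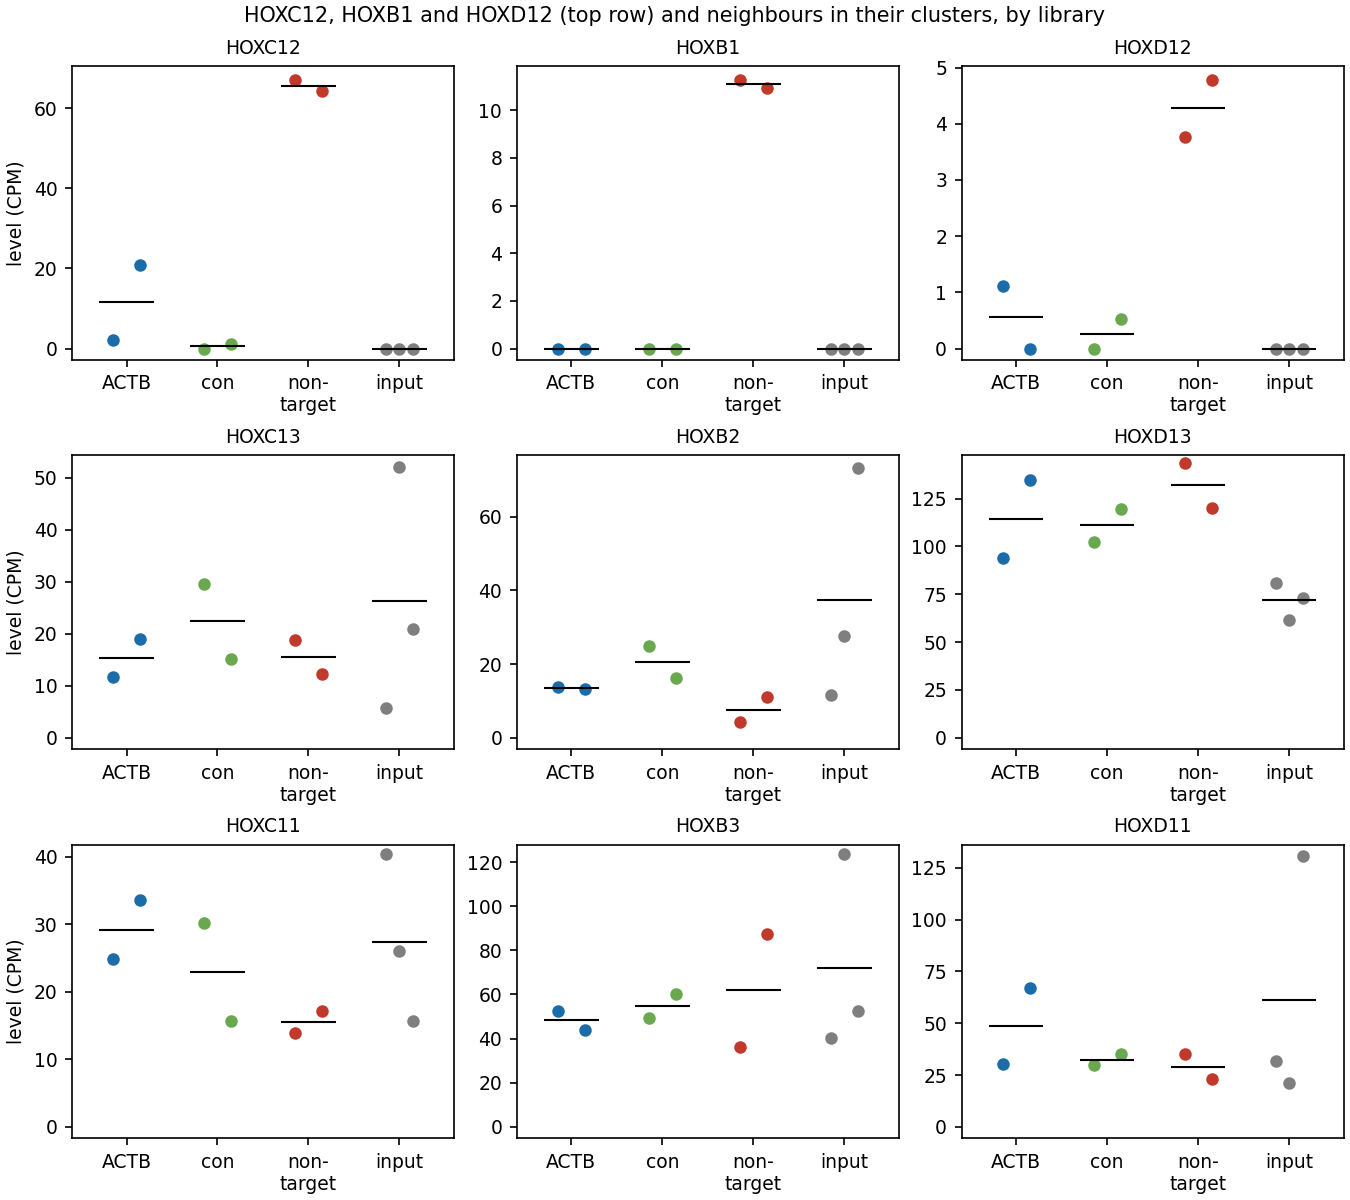
Level (CPM) in each library (points) with the group mean (bar) for HOXC12, HOXB1 and HOXD12 (top row) and, below each, 2 genes next along its cluster. The top-row genes are highest in both non-target libraries, and the neighbours show overlapping groups or another order.

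No other member passed between guides in edgeR. Of 36 members with counts in both groups, 29 differed by less than 1 on the log2 scale between ACTB and non-target sgRNA, 31 between ACTB and con sgRNA and 31 between con and non-target sgRNA. The 95% interval lay within 1 log2 unit on both sides for 11, 10 and 12 members, so for the rest a change of that size was not excluded. At an unadjusted p under 0.05 there were 7 members (of 37) for ACTB versus non-target, 3 for ACTB versus con and 3 for con versus non-target, beside 7.82%, 3.86% and 5.25% of all genes. Besides HOXC12, HOXB1, HOXA6 and HOXA10, they were HOXA7, HOXB4, HOXB13 and HOXB2. HOXA7 was at 12.6 ± 7.19 CPM in the ACTB and 28.9 ± 1.70 CPM in the non-target pair (log2 -1.19, SE 0.53, adjusted p = 0.58).

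HOXB13, the last posterior gene of HOXB and a prostate lineage factor, held 182 and 92 counts in the ACTB pair, 40 and 62 in the con pair, 82 and 50 in the non-target pair and 0 in each of 3 inputs. Every FHY1-M3 library was above every input. HOXB13 thus passed the low-count filter through the FHY1-M3 libraries alone, and its call against input is given as a description. At its mean FHY1-M3 level (23.8 ± 14.1 CPM, n = 6), 32.0 counts would be expected over the inputs, so the level was at least 5.33-fold higher against a floor of 3 read pairs (edgeR adjusted p = 0.000172, between 1.03e-05 and 0.00359 over 17 alternatives). Within the guides it was highest in the ACTB pair, at 38.4 ± 16.7 CPM against 13.3 ± 4.15 CPM in the con pair (log2 1.53, SE 0.47), which did not pass (adjusted p = 1). HOXB9, its nearest neighbour at 98.4 kilobases, was detected in all inputs.

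FHY1-M3 libraries were compared with the inputs in a fit of all 9 libraries. These kinds of library differ in labelled construct and guide and in depth, and may differ in RNA fraction. Such differences cannot be told apart here. HOXB13, HOXD13 and HOXC12 were higher, and HOXB8, HOXC10, HOXB4 and HOXB2 were lower. These 7 of 38 tested members (18.4%) stand beside 20% of all 13411 genes, so HOX genes were called about as often as genes at large. By direction, 3 were higher beside 11.4% of all genes and 4 lower beside 8.60%. The median over the 38 tested members was -0.25, beside 0.04 for all genes tested. Over the 34 members with counts on both sides it was -0.30. By cluster, 0 of 11 HOXA genes were called, 4 of 10 HOXB, 2 of 9 HOXC and 1 of 8 tested HOXD genes. By position, 1 of 7 anterior, 2 of 15 central and 4 of 16 posterior genes were called.

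HOXD13, a digit and genital patterning factor, was at 93.9 and 134 CPM in the ACTB pair, 102 and 120 CPM in the con pair, 143 and 120 CPM in the non-target pair and 80.9, 61.8 and 73.2 CPM in the inputs. All 6 FHY1-M3 libraries lay above all inputs (log2 0.74, SE 0.24, adjusted p = 0.0235). The call was lost without ACTB replicate 2 (0.0821), con replicate 2 (0.0718), non-target replicate 1 (0.061) or input replicate 2 (0.114), and after thinning to the mean input total (0.111). HOXC12 was at 25.9 ± 31.8 CPM (n = 6), at least 5.80-fold above the inputs at 0 (adjusted p = 0.0278), but con replicate 1 was also at 0 and the non-target libraries made up most of that mean. Like HOXB13, HOXC12 passed the low-count filter through FHY1-M3 libraries alone, so this call is also a description. It lost its call without ACTB replicate 2 (0.0648), con replicate 2 (1), non-target replicate 1 (0.06) or input replicate 1 (0.0519), 2 (0.113) or 3 (0.0721), and on counts halved to read pairs (0.0668).

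HOXB8, known from spinal cord patterning and from myeloid progenitors, was at 23.2 and 17.4 CPM in the ACTB pair, 24.4 and 17.6 CPM in the con pair, 16.4 and 27.3 CPM in the non-target pair and 43.4, 74.8 and 52.3 CPM in the inputs. Inputs and FHY1-M3 libraries did not overlap (log2 -1.45, SE 0.38, adjusted p = 0.00538), and the call was lost without input replicate 2 (0.0731). HOXC10, a lumbar spinal cord and hindlimb gene, was at 29.8, 36.4, 21.3, 36.7, 18.8 and 22.6 CPM in the sgRNA libraries and 92.5, 48.8 and 47.1 CPM in the inputs, again without overlap (-1.19, SE 0.36, adjusted p = 0.0166). Its call was lost without input replicate 1 (-0.83, 0.15) or con replicate 1 (0.0601).

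HOXB4 and HOXB2 lie nearer the head end of the cluster. HOXB4, a factor of blood stem cells, was at 4.14, 2.89, 5.72, 12.6, 15.6 and 9.23 CPM in the sgRNA libraries and 34.7, 16.3 and 31.4 CPM in the inputs (-1.86, SE 0.60, adjusted p = 0.025). The groups did not overlap, though the highest FHY1-M3 library and the lowest input were close, and HOXB4 lies within HOXB3. The call was lost without ACTB replicate 2 (0.0547), con replicate 1 (0.0764), non-target replicate 2 (0.0571) or input replicate 1 (0.0867) or 3 (0.0811), and with a replicate block (0.0867). HOXB2, a hindbrain gene, was at 13.8, 13.3, 25.0, 16.3, 4.3 and 10.9 CPM and at 11.6, 27.6 and 73.2 CPM in the inputs, where the groups overlapped (-1.54, SE 0.51, adjusted p = 0.0299). It rested on input replicate 3, without which the log2 was -0.68 (adjusted p = 0.495), was -0.62 with a replicate block (0.551), and also lost its call without ACTB replicate 1 (0.0556) or 2 (0.0574), con replicate 2 (0.0753) or non-target replicate 1 (0.0834).

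**Figure D4:**
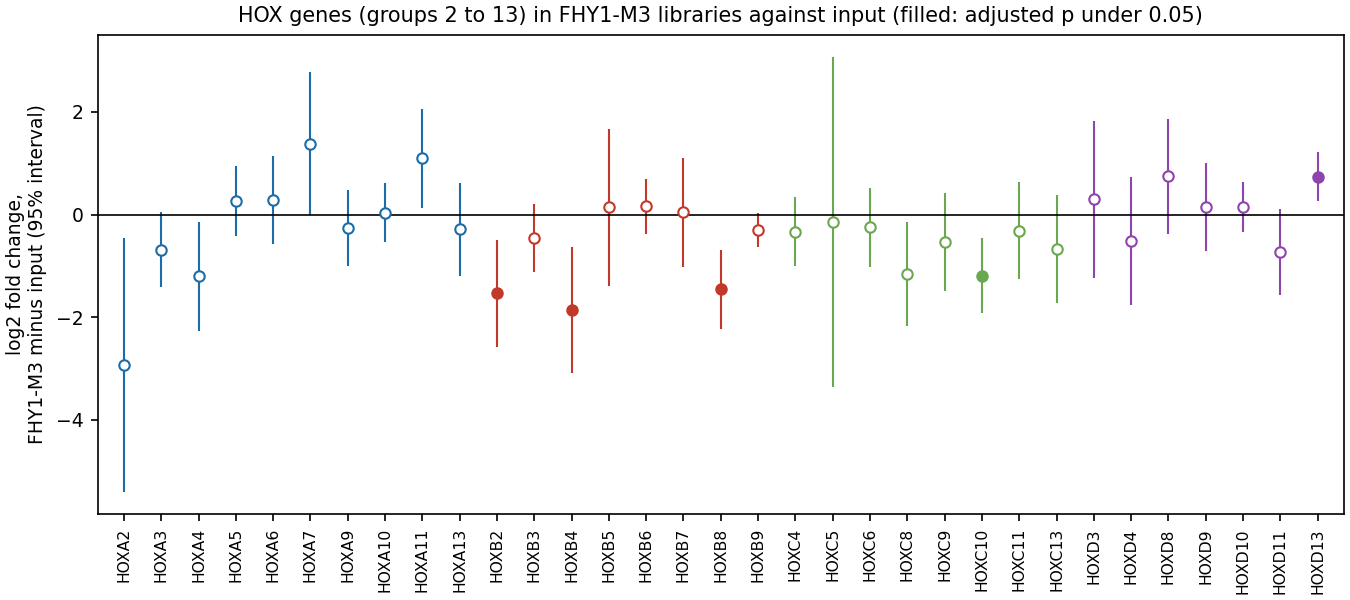
Log2 fold change of FHY1-M3 libraries (n = 6) against inputs (n = 3) with its 95% interval for the 33 HOX genes of paralog groups 2 to 13 with counts in both, coloured by cluster; filled points passed an adjusted p of 0.05. The 5 filled points are HOXB2, HOXB4, HOXB8 and HOXC10 below 0 and HOXD13 above 0.

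**Figure D5:**
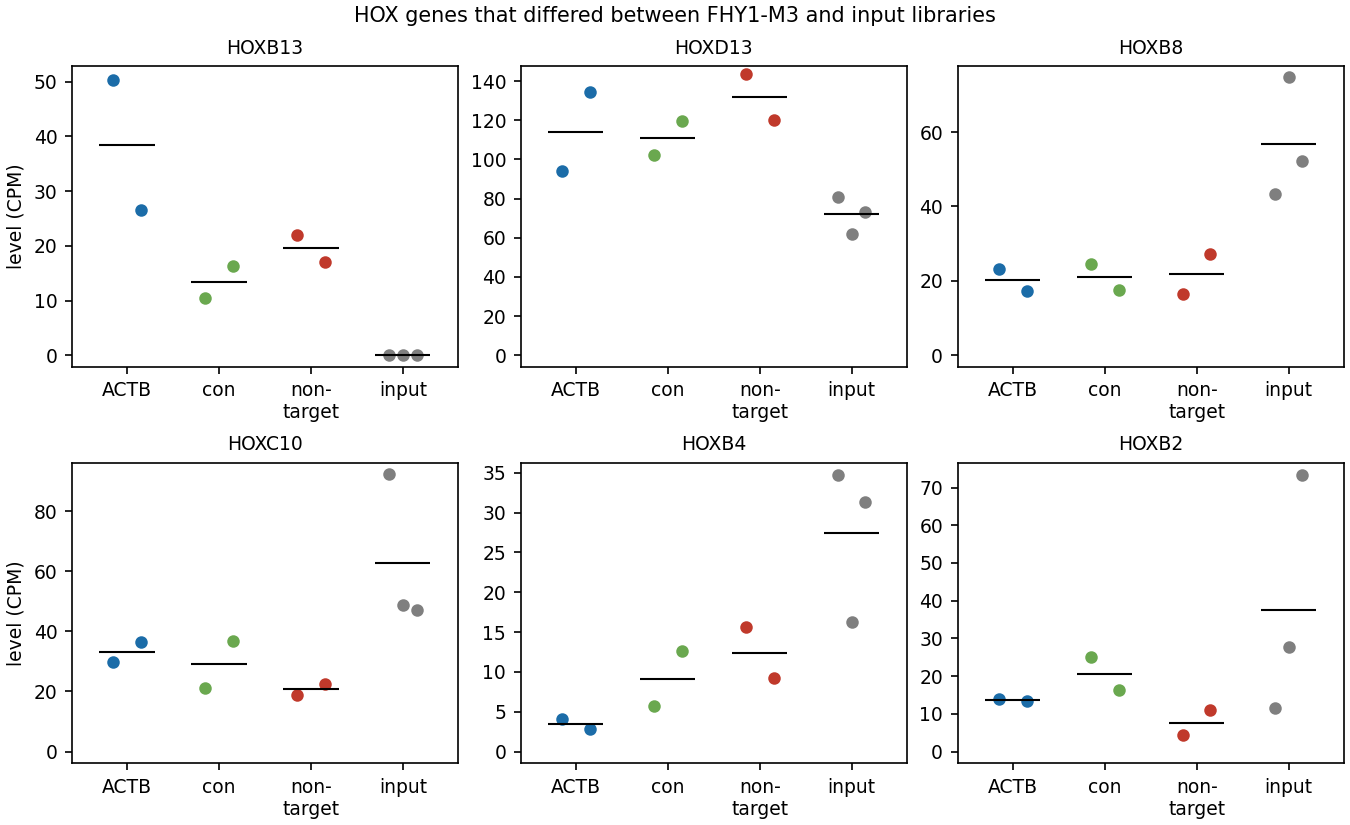
Level (CPM) in each library (points) with the group mean (bar) for 6 HOX genes that passed between FHY1-M3 and input libraries. HOXB13 is at 0 in all inputs, HOXD13 is lower in the inputs, and HOXB8, HOXC10 and HOXB4 are higher in each input than in any FHY1-M3 library.

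Among members that did not pass, HOXA2, a pharyngeal arch gene, was at 2.01 ± 2.08 CPM over the 6 FHY1-M3 libraries against 9.75 ± 3.66 CPM in the inputs (log2 -2.93, SE 1.22, adjusted p = 0.0869), and DESeq2 called it (0.0071). HOXA4 was at 14.8 ± 7.83 against 33.7 ± 5.96 CPM (-1.20, SE 0.52, adjusted p = 0.102), and passed without non-target replicate 2 (0.0187). HOXC8 was at 14.9 ± 4.63 against 33.6 ± 21.1 CPM (-1.17, SE 0.50, adjusted p = 0.0983), and passed without input replicate 1 (0.0396). The 5 members at 0 in every input were HOXB1, HOXB13, HOXC12, HOXD1 and HOXD12. At the mean FHY1-M3 level 4.98, 1.88 and 2.28 counts of HOXB1, HOXD1 and HOXD12 would be expected over the 3 inputs, under the floor of 6 counts. All HOXB1 counts came from the non-target pair, and at that pair's level 14.9 HOXB1 counts would be expected over the inputs and 5.74 of HOXD12. In bulk RNA, fewer cells with a transcript and less of it per cell cannot be told apart.

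A further 11 members, HOXA3, HOXA9, HOXA13, HOXB5, HOXB7, HOXC5, HOXC9, HOXD3, HOXD4, HOXD8 and HOXD9, passed in none of the 4 comparisons and had an unadjusted p of 0.05 or more in each. HOXA3, an anterior gene of pharyngeal organ development, was at 23.9 to 48.5 CPM in the sgRNA libraries and 46.3 to 58.5 CPM in the inputs. HOXA9, a blood progenitor factor, ranged from 25.0 to 39.8 CPM and from 37.6 to 44.4 CPM. HOXD9 ranged from 24.9 to 36.4 CPM and from 18.3 to 34.7 CPM. Each of these ranges overlapped between sgRNA libraries and inputs. HOXC5 was the lowest of the 11, with 10 and 34 counts in the ACTB pair, 2 and 4 in the con pair, 0 and 4 in the non-target pair and 2, 0 and 0 in the inputs.

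Genes that work with or regulate HOX genes were examined beside them, as lists chosen with earlier results known. None of the 9 PBX, MEIS and PKNOX cofactors, 31 Polycomb or 19 Trithorax and COMPASS genes passed in any guide comparison. Nor did any of the 12 tested retinoic acid pathway genes. At an unadjusted p under 0.05, ACTB versus non-target gave 1, 2, 2 and 0 genes of these lists, beside 7.82% of all genes. ACTB versus con gave 0, 0, 0 and 0, beside 3.86%, and con versus non-target 0, 4, 0 and 0, beside 5.25%. Among 9 tested ParaHox and HOX-linked homeobox genes, EVX1 and MEOX2 were lower in both the ACTB and the con pair than in the non-target pair, beside 0.195% and 0.164% of all genes called lower. These 2 genes, LMX1A and IRX1 had no count in any ACTB or con library, so they passed the low-count filter through the non-target pair alone and their calls are given as a description. The same limit covers LHX5 and GSC2. LHX5 held 1 count in con replicate 1 and GSC2 held 2 in con replicate 2, with 0 in the other ACTB and con libraries. EVX1, which adjoins HOXA, held 88 and 58 counts in the non-target pair and 0 in the other 7 libraries (adjusted p = 0.000963 for ACTB and 0.000846 for con sgRNA). MEOX2 held 144 and 108 counts there, 0 with the other guides and 2 in 1 input. GSX2 held 34 and 22 counts there and 0 elsewhere. CDX2, a regulator of HOX genes in the hindgut, had 144 to 282 counts in every sgRNA library. Of 72 tested genes of other homeobox families, 4 were lower and 1 higher in the ACTB than in the non-target pair, beside 0.195% and 0.0547% of all genes. In con versus non-target 3 were lower (LHX5, LMX1A and IRX1) and 1 higher, beside 0.164% and 0.00781%. The higher gene was EMX1 in both, at 18 and 52 counts in the non-target pair, 244 and 241 in the ACTB pair and 302 and 253 in the con pair (log2 2.64 for ACTB and 2.71 for con). The inputs held 351, 292 and 305 EMX1 counts. Their mean of 762 CPM lay above the 68.6, 72.5 and 11.3 CPM of the ACTB, con and non-target pairs. LHX5, LMX1A, GSC2 and IRX1 were the ones lower in the ACTB pair, at 35.2, 20.6, 17.3 and 14.5 CPM in the non-target pair and 0 in the ACTB pair.

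Marker lists of other cell types were summed in each library. Of 8 blood markers the non-target pair had counts for 2, summing to 20.4 to 26.7 CPM against 1.04 to 3.32 CPM in the other sgRNA libraries and 0 to 17.3 CPM in the inputs. Most of it was the fetal globin gene HBG1 (72 and 78 counts, and 0 in the other 7 libraries), while PTPRC and CD3E were at 0 in every library. Of 7 fibroblast markers 4 had counts in the non-target pair, summing to 53.5 to 54.7 CPM against 26.6 to 36.9 CPM in the other sgRNA libraries and 15.7 to 75.2 CPM in the inputs. COL1A1 led this list, with 182 and 124 counts in the non-target pair against 58 to 102 in the other sgRNA libraries, while COL1A2 was at 0 throughout and LUM was lower in the non-target pair (0 and 2 counts against 12 to 18). Of 5 muscle markers 4 had counts in the non-target pair, summing to 32.8 to 38.1 CPM against 17.9 to 27.9 CPM, and 15.7 to 17.3 CPM in the inputs. MYH3 gave most of that sum, at 126 and 72 counts against 52 to 71. The other muscle markers did not move together. MYOG held 6 and 12 counts against 0, and MYOD1 held 6 and 2 against 0 to 2. ACTA1 went the other way, at 4 and 10 against 6 to 30, and DES held 0 against 0 to 6. Thus the blood, fibroblast and muscle sums of the non-target pair lay above those of the other sgRNA libraries, with single genes leading each.

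Of 6 pluripotency markers 4 had counts in the non-target pair, summing to 23.6 to 44.1 CPM against 6.94 to 22.9 CPM in the other sgRNA libraries and 5.23 to 52.0 CPM in the inputs. Its members did not move together. NANOG held 28 and 36 counts in the non-target pair and 0 elsewhere, and SOX2 held 40 and 69 there, within the 16 to 82 of the other sgRNA libraries. POU5F1 held 0 and 4 against 6 to 12, and DPPA4 and TDGF1 were at 0 in every library. The neuron sum of the non-target pair (24.6 to 25.8 CPM, 4 of 5 markers) lay within that of the other sgRNA libraries (22.6 to 30.4 CPM), with 5.78 to 27.6 CPM in the inputs. Endothelial markers summed to 1.07 to 2.05 CPM in the non-target pair, 0 to 3.12 CPM in the other sgRNA libraries and 5.23 to 17.3 CPM in the inputs, and CDH5 was at 0 throughout. Hepatocyte markers summed to 0 to 6.15, 0 to 2.62 and 0 to 4.88 CPM in the same order, and TTR was at 0 throughout. The part of these markers in the HOXC12 difference was not tested.

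Against the inputs, the Polycomb list had 6 higher and 4 lower genes of 31 (median log2 0.31), beside 11.4% and 8.60% of all genes called higher and lower. RNF2, a ubiquitin ligase subunit of Polycomb complex PRC1, was at 310 CPM in the inputs and 66.6 CPM in FHY1-M3 libraries (-2.23, SE 0.20). Its input counts of 126, 121 and 141 did not follow the input totals of 350413, 643954 and 391710. The EMX1 counts of 351, 292 and 305 did not either, and the cause was not tested. PHC3 was lower by 1.54 on the log2 scale (SE 0.22), and PCGF3 was higher (1.20, SE 0.26). In the Trithorax list 3 of 19 (15.8%) were lower in FHY1-M3 libraries, beside the same 8.60%, and 0 were higher. The lower genes were the histone demethylase gene KDM6B (-0.98, SE 0.21), KMT2C (-0.54, SE 0.11) and KMT2A (-0.38, SE 0.13). Of 8 chromatin architecture genes 5 were higher (62.5%, beside 11.4%) and 0 were lower. Among the higher genes were WAPL (1.25, SE 0.18), STAG1 (1.08, SE 0.28), the insulator factor CTCF (0.91, SE 0.23) and SMC1A (0.52, SE 0.10). No HOX cofactor or retinoic acid gene passed, with 0 and 1 at an unadjusted p under 0.05.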

How the data were processed

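The table holds read counts per gene symbol as the authors deposited them, with no normalization visible in the values. Tools named in the submitters' processing notes, with no roles, are STAR 2.7.10b, cutadapt 4.3 and deepTools, with build hg38. For the counting tool, strand use and annotation the answer is not given in the sources used here. Groups were compared with edgeR 4.0.16 (R 4.3.3), quasi-likelihood F test, two-sided, after filterByExpr by group and TMM scaling: the 6 sgRNA libraries for guide comparisons, and all 9 libraries in 4 groups, with the mean of the 3 guides minus input, for FHY1-M3 against input. Adjusted p-values are Benjamini-Hochberg values over all genes tested, with a threshold of 0.05, and come from edgeR unless DESeq2 1.42.0 is named. SE is the log2 change divided by the root of F. Levels (CPM) use the TMM factors of the 9-library fit. When a group was at 0, folds are bounds against 3 read pairs (6 counts) over that group, which cover counting error only. The reference tables give gene span, not transcript length, so levels per kilobase include introns. Members past the threshold and the 3 with the highest level in each cluster were given by library, and up to 4 called genes per list were named. Neighbours of HOXC12, HOXB1 and HOXD12, further members with an unadjusted p under 0.05, HOXD1, the ranges of 4 uncalled members, and CDX2 and GSX2 were named after their values were seen. Members and lists were chosen with earlier results of these data known. A few genes of the members and lists are counted in the totals but not reported here by name. The test was tried on simulated counts. Chi-square per degree of freedom between replicates was 1.80 to 5.12 on read pairs, above sampling noise, so no library was treated as a re-sequencing of another. These values cannot tell separate cultures from separate preparations of the same RNA. Alternatives covered scaling, filters, DESeq2, the libraries fitted, a replicate block, read pairs, thinning to the mean input total (462026 counts) and leaving out each library.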

Additional observations from a re-analysis of the deposited data

How the results depend on the processing

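The number of HOX genes called between ACTB and con sgRNA was 1 and became 0 in DESeq2 and with all 9 libraries in the fit. Between ACTB and non-target sgRNA it was 1 and became 0 with all 9 libraries, and DESeq2 called HOXB1 in place of HOXC12. For con versus non-target the count of 1 became 2 in DESeq2. With each library left out in turn the counts ran from 0 to 1 for ACTB versus con, 0 to 1 for ACTB versus non-target, 1 to 1 for con versus non-target and 3 to 7 for FHY1-M3 against input. No single-gene log2 value with an unadjusted p under 0.05 changed its sign under any alternative run. Replicate numbers are shared between groups in the labels. Deviations of same-numbered libraries correlated at 0.0102, -0.00616 and -0.0192 between guides. Between ACTB, con or non-target and input (replicates 1 and 2) they correlated at -0.00721, 0.00186 and 0.00429. Counting noise also lowers such correlations, so they cannot exclude a shared culture or day. The main fits used no pairing. With a replicate block the counts were 1, 1 and 1 between guides and 5 against input, where HOXB4 and HOXB2 were lost. The cause of these changes was not tested. The inputs are shallow: a count of 0 over all 3 allows a level of up to 4.47 CPM (3 read pairs).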
